A study of Homo sapiens with 8 samples.

Results

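The plasminogen activators and their inhibitors were described in BT549, an established triple-negative line from a human breast carcinoma, when its cells were kept from attaching. The 5 genes were given by name: the proteases PLAT and PLAU, the receptor PLAUR, and the inhibitors SERPINE2 and SERPINB2. A gene was measured where a probe set of the array was annotated to it, alone or with other genes. PLAT, PLAU, PLAUR and SERPINE2 had 1 probe set each, annotated to that gene alone, so 4 of the 5 were measured, out of 18417 genes tested on 33297 probe sets. SERPINB2, the intracellular and secreted inhibitor also called PAI-2, is not analysed here.

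The suspended group held 4 samples of cells kept for 24 h over poly-HEMA, a coating that prevents adhesion. The attached group held 4 samples of cells grown on ordinary culture plastic, for 24 h by one label and 48 h by another. If 48 h is right, time in culture and attachment cannot be told apart. Both groups were of the same line, with no added drug or genetic change in the labels, in RPMI medium with 10% serum and insulin. The labels number the 4 samples of a group without saying whether they were separate cultures, so p-values measure the spread between these samples, which may be technical. All come from 1 line.

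Plasmin is a broad protease that digests fibrin and matrix proteins. It is made from plasminogen, a liver-derived plasma protein, by tissue-type activator (PLAT) or by urokinase (PLAU), which is held at the cell surface by its receptor (PLAUR). Serpins trap the activators as covalent complexes, and endocytic receptors such as LRP1 remove those complexes from the surface. In breast tumours the urokinase system is known for its link to invasion.

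PLAT and SERPINE2 rose in suspended cells, while PLAU and PLAUR did not pass the test. The PLAT signal was 1.5-fold higher (log2 difference 0.59, SE 0.055) and the SERPINE2 signal 1.32-fold higher (log2 difference 0.40, SE 0.049; n = 4 per group). The estimate for PLAU was a log2 difference of -0.12 (SE 0.051) and that for PLAUR -0.03 (SE 0.050). So 2 of 4 measured genes were called higher and 0 lower by limma at an adjusted p under 0.05. Over all tested genes 20.6% were called, 10.4% higher and 10.2% lower, with a median log2 difference of 0.02. The balance moved with the scaling: 1910 were higher and 1877 lower as deposited, 1536 and 2074 after median centring, and 2026 and 1689 after quantile normalization. The share called also depended on signal: a refit of the 9208 genes above the median signal called 1815 higher and 2055 lower. The 4 measured genes lay at percentile 81.8 of mean signal or above. The 20.6% is therefore not matched to them for signal. The arrays give a log2 signal with no background measure, so a fold is a ratio of signals. The labelling protocol in the labels gives 1 ug of RNA for every array. If that step applies to these arrays, a signal describes a share of that RNA. RNA per cell was not measured. Signals of different probe sets are not set against each other here.

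PLAT encodes tissue-type plasminogen activator, a secreted serine protease that works best on fibrin. Its log2 signal was 8.98, 9.10, 8.98 and 8.88 in suspended replicates 1 to 4, against 8.34, 8.44, 8.42 and 8.39 in attached replicates 1 to 4. Every suspended array lay above every attached array, with a gap of 0.44 between the lowest suspended and the highest attached value. The gap was wider than the range within either group, which was 0.22 among suspended and 0.10 among attached arrays. Group means were 8.99 ± 0.09 suspended and 8.40 ± 0.04 attached (SD, n = 4 each). The limma adjusted p was 1.86e-05, and the 95% interval of the fold ran from 1.38 to 1.63. Of the 18417 genes, 322 (1.75%) had a larger absolute log2 difference than PLAT.

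PLAU encodes urokinase, the activator that acts mainly at cell surfaces. Its log2 signal was 8.15, 8.13, 7.97 and 8.09 in suspended replicates 1 to 4, against 8.17, 8.20, 8.23 and 8.24 in attached replicates 1 to 4. All 4 suspended values lay below the attached ones, yet the gap between the groups was 0.02, less than the range of 0.18 among suspended arrays. Means were 8.09 ± 0.08 suspended and 8.21 ± 0.03 attached (SD, n = 4 each). The limma adjusted p was 0.117 (unadjusted p = 0.0332), so PLAU was not called. An exact two-sided permutation test of its values alone gave p = 0.0286, the smallest that 4 against 4 arrays allow. The 95% interval of the fold, 0.850 to 0.992, reaches close to no difference. A larger absolute difference was seen in 6898 genes (37.5%).

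PLAUR encodes the urokinase receptor, a protein anchored to the membrane by a lipid, which also binds vitronectin. Its log2 signal was 9.93, 9.97, 9.91 and 9.97 in suspended replicates 1 to 4, against 9.89, 10.02, 10.06 and 9.93 in attached replicates 1 to 4. The groups overlapped, and the attached arrays spanned the wider range (0.17, against 0.06 among suspended arrays). Means were 9.95 ± 0.03 suspended and 9.97 ± 0.08 attached (SD, n = 4 each), with a limma adjusted p of 0.741. The 95% interval of the fold was 0.908 to 1.06, so a rise of the size seen for PLAT lay outside it. After a further quantile normalization the sign of the PLAUR estimate turned (log2 difference 0.02).

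SERPINE2 encodes protease nexin-1, a secreted serpin that inhibits thrombin, urokinase and tissue-type activator and binds to heparan sulphate at the cell surface. Its log2 signal was 10.09, 10.22, 10.22 and 10.12 in suspended replicates 1 to 4, against 9.76, 9.72, 9.82 and 9.75 in attached replicates 1 to 4. The groups did not overlap, and the gap of 0.28 exceeded the range within each group (0.13 suspended, 0.09 attached). Means were 10.16 ± 0.07 suspended and 9.76 ± 0.04 attached (SD, n = 4 each). The limma adjusted p was 0.000153, and the 95% interval of the fold ran from 1.22 to 1.42. A larger absolute difference was seen in 883 genes (4.79%). Values of PLAT, PLAU and SERPINE2 thus did not overlap between groups, 3 of 4 measured genes, where 24.8% of all tested genes showed the same.

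**Figure D1:**
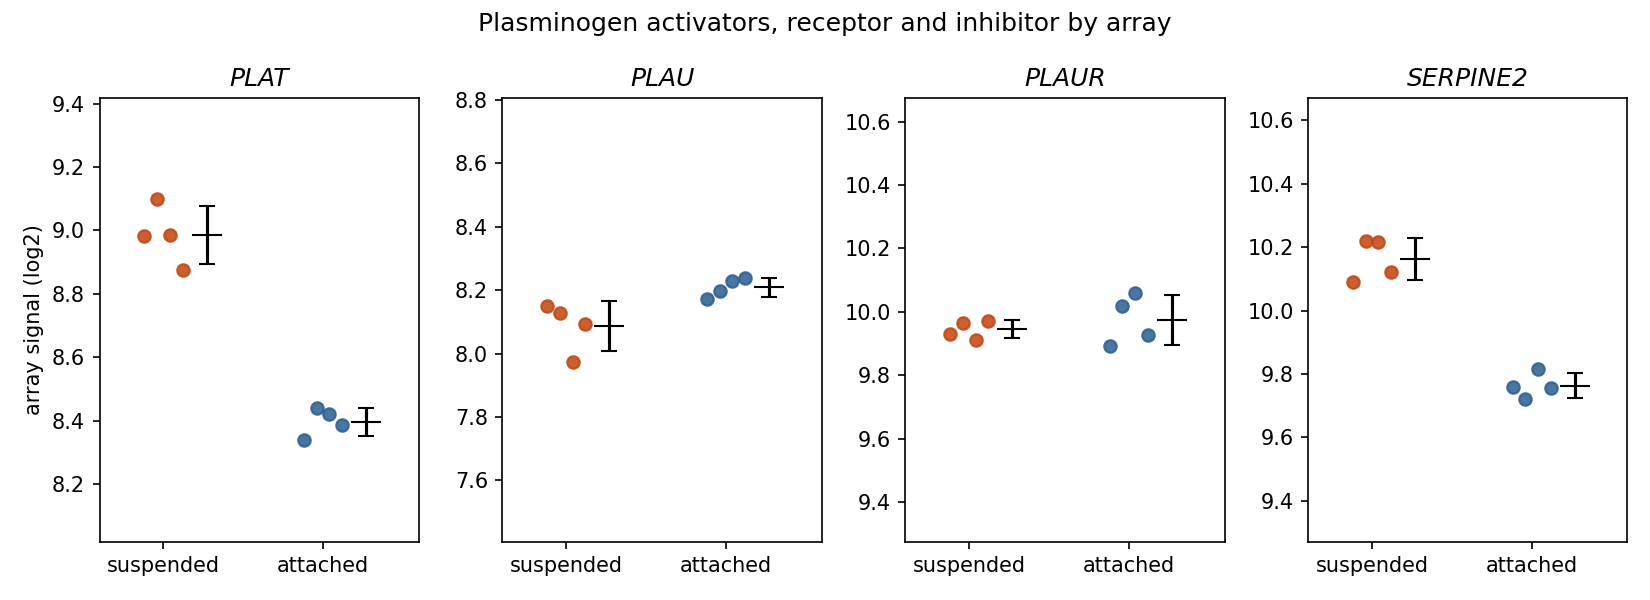
Log2 array signal (vertical axis, the same span of 1.4 in each panel) of PLAT, PLAU, PLAUR and SERPINE2 in the 4 suspended arrays (left) and 4 attached arrays (right); black bars give the mean and SD. The suspended arrays of PLAT (8.88 to 9.10) and SERPINE2 (10.09 to 10.22) lie clear of the attached arrays, those of PLAU lie just below them, and those of PLAUR overlap them.

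The 4 changes were then compared with each other, as differences of log2 changes taken within each array, over 6 pairs. In order from highest to lowest they were PLAT, SERPINE2, PLAUR and PLAU. The PLAT signal changed more than that of its inhibitor SERPINE2 by 0.19 on the log2 scale (95% interval 0.08 to 0.30). How the signal of each probe set follows RNA was not measured, so these pairs compare changes of signal. PLAT exceeded the other activator, PLAU, by 0.71 (0.57 to 0.86), and SERPINE2 exceeded PLAU by 0.52 (0.36 to 0.69). The differences to PLAUR were 0.62 (0.49 to 0.75) for PLAT and 0.43 (0.30 to 0.56) for SERPINE2. These 5 pairs each reached the smallest p of the exact two-sided permutation test, 0.0286, unadjusted. PLAUR and PLAU, the neighbours at the low end, differed by 0.09 (-0.03 to 0.21, exact permutation p = 0.114), which is within their spread.

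**Figure D2:**
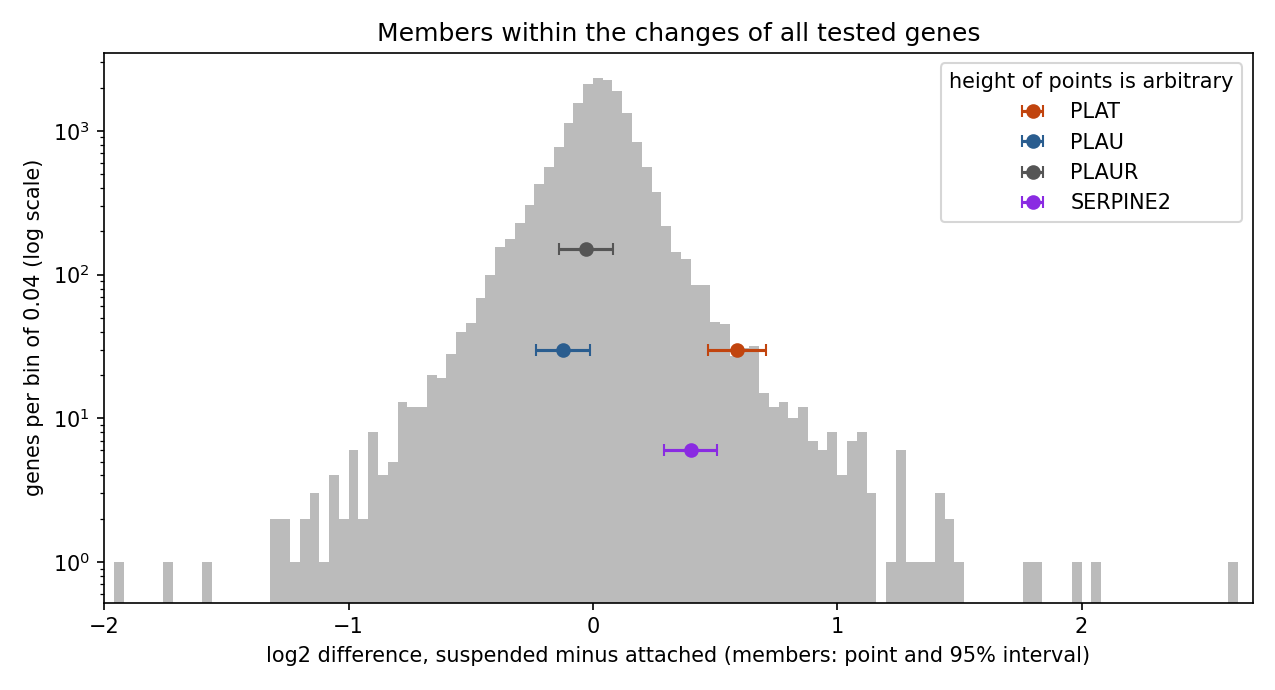
Histogram of the log2 difference, suspended minus attached, of all 18417 tested genes (grey; vertical axis on a log scale), with each measured gene of the set as a point with its 95% interval at an arbitrary height. PLAT (0.59) and SERPINE2 (0.40) lie in the right flank, whereas PLAUR (-0.03) and PLAU (-0.12) lie within the central mass.

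**Figure D3:**
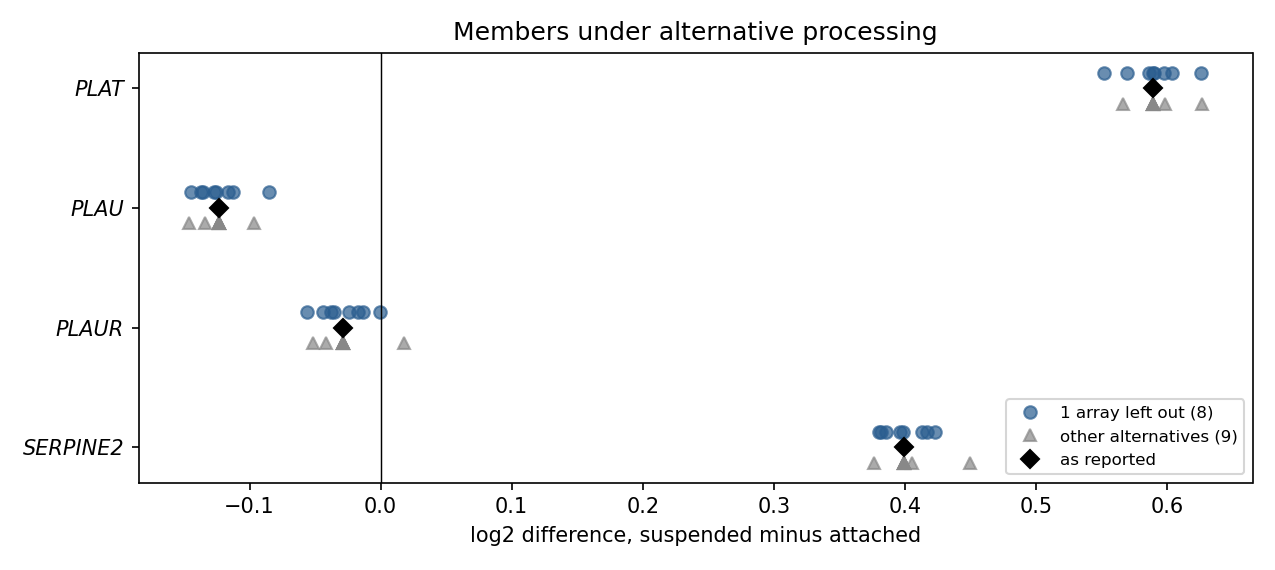
Log2 difference, suspended minus attached (horizontal axis), of the 4 measured genes as reported (black), with 1 array left out in turn (blue, 8 refits) and under 9 other ways of processing (grey). PLAT (0.55 to 0.63) and SERPINE2 (0.38 to 0.45) stay to the right of 0, PLAU (-0.15 to -0.09) to the left, and PLAUR crosses 0 with quantile normalization.

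To show the DNA around the start sites of a gene that rose (SERPINE2) and of the pair that did not pass the test, promoter windows were taken from RefSeq (GRCh38.p14), 250 bases before to 50 after a start. Windows were found for 3 of the 4 measured genes, 5 in all: 2 for SERPINE2, 2 for PLAU and 1 for PLAUR, of which 4 are printed. No PLAT window is shown. Capitals mark matches, on either strand, to 5 short motifs: the AP-1 element (TGANTCA), the TEAD element (GGAATG), the GC box (GGGCGG), the CCAAT box (CCAAT) and the TATA box (TATAAA).
SERPINE2, inner start, chr2:224031429-224031728, minus strand: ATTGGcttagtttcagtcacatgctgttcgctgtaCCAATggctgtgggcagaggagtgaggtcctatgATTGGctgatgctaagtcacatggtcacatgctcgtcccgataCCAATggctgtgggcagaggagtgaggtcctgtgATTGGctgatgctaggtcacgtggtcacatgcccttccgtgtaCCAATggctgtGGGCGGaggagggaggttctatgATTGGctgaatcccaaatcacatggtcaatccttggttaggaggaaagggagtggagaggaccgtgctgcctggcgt
SERPINE2, outer start, chr2:224038591-224038890, minus strand: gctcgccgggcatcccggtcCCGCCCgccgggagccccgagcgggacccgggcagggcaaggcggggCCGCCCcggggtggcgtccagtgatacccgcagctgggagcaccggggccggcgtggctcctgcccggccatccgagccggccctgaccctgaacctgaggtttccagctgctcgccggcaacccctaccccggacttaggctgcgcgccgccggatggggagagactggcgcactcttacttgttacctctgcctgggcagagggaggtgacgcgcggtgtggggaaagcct
PLAUR, chr19:43670120-43670419, minus strand: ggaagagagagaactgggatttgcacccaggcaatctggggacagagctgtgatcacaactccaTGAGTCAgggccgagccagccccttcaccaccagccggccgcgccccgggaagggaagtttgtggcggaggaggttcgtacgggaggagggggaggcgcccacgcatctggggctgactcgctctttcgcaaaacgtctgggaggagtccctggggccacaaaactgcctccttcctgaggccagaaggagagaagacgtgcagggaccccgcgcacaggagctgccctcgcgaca
PLAU, second window, chr10:73910882-73911181, plus strand: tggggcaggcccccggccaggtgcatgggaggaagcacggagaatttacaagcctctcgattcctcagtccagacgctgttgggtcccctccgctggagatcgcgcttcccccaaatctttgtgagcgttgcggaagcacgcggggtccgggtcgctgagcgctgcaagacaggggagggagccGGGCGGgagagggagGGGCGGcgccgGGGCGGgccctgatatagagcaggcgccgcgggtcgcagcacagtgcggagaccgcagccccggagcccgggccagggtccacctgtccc
The inner SERPINE2 window held 7 matches to the CCAAT box, spread from 250 to 27 bases before the start, and 1 to the GC box. The 7 lie in similar stretches repeated along the window, so they are not 7 independent matches. The outer SERPINE2 window held 2 GC boxes and the printed PLAU window 3. The PLAUR window held 1 AP-1 element, 186 bases before the start, and the other PLAU window 1 CCAAT box. Among 35116 windows of this length, 34.6% held a CCAAT box, 45.0% a GC box, 7.71% an AP-1 element, 14% a TEAD element and 11.5% a TATA box, the last pair of which matched none of the 5. A match is a description of letters, and gene-level probe sets do not show which start was used.

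Around the 4 genes, 8 lists of the plasminogen system and its relatives held 124 genes, of which 118 were tested and 6 are not analysed here. Of those tested, 16 rose and 11 fell, 22.9% in all, close to the 20.6% over all genes. The median log2 difference was 0.03. The counts differed from list to list, and no test compared the lists. The lists were chosen with earlier results of these data known. A share of calls above that over all genes can therefore come from the choice of genes.

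The list of plasminogen and its docking proteins, which also held AMBP, CPB1 and CPB2, gave 0 calls among 9 tested. The test was limma at adjusted p under 0.05, and 1 gene had an unadjusted p under 0.05. The median log2 difference was 0.02. PLG, plasminogen itself, was at 5.24 ± 0.13 suspended and 5.09 ± 0.19 attached (log2, SD, n = 4 each), under 5.28, the 25th percentile of mean signal over tested genes. Without a background measure such a signal does not show presence. PLGRKT, a transmembrane plasminogen receptor, had a log2 difference of -0.10. ENO1, the glycolytic enolase that also binds plasminogen outside the cell, had -0.07, and S100A10, the partner of annexin A2 in plasminogen binding, 0.06. Leaving out 1 array moved PLG to between 0.09 and 0.22, and quantile normalization gave -0.03 for ENO1 and 0.10 for S100A10. The adjusted p of these 4 lay between 0.140 and 0.382.

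The list of other inhibitors of plasmin or its activators likewise gave 0 calls among 8 tested, and 0 at an unadjusted p under 0.05. TFPI2, which also inhibits plasmin, was read with the coagulation genes and is not among the 8. Of the 8, 4 had mean signals below 5.28. SERPINF2, alpha-2-antiplasmin, had a log2 difference of 0.17 (adjusted p = 0.208). SERPINA1, the elastase inhibitor, had -0.09, SERPINC1, antithrombin, -0.05, and the broad protease trap A2M 0.05. Leaving out 1 array moved SERPINF2 to between 0.10 and 0.24, SERPINA1 to between -0.13 and -0.05, SERPINC1 to between -0.07 and -0.03 and A2M to between 0.02 and 0.07. Of SERPINE2 and these 8 inhibitors, SERPINE2 alone passed the test, whereas TFPI2, outside them, fell (log2 difference -0.80).

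Receptors that clear activator complexes or sit beside the urokinase receptor moved in both directions. Of 20 tested 4 rose and 5 fell, 45.0% against 20.6% over all genes, with a median of -0.05. These shares are not matched for signal. Mean signals below 5.28 were seen in 4 of the 20. The refit of the 9208 genes above the median signal called 1815 higher and 2055 lower. LRP1, the large endocytic receptor that takes up complexes of serpins with PLAT and PLAU, rose 1.52-fold (log2 difference 0.61, SE 0.050, limma adjusted p = 7.48e-06). Its log2 signal was 8.07, 8.11, 8.07 and 8.16 in suspended replicates 1 to 4, against 7.41, 7.54, 7.56 and 7.48 in attached replicates 1 to 4, with no overlap. IGF2R, the mannose 6-phosphate receptor, known to bind the urokinase receptor and plasminogen, rose 1.31-fold (log2 difference 0.39). Its values ran from 9.45 to 9.51 in suspended cells and from 9.06 to 9.10 in attached cells. VLDLR, a smaller relative of LRP1 with overlapping ligands, fell by 0.39 on the log2 scale, to 6.42 to 6.63 in suspended cells, against 6.85 to 6.96 in attached cells. EGFR, a growth factor receptor through which urokinase receptor signals can pass, fell by 0.45 on the log2 scale, with values of 7.998 to 8.21 suspended and 8.47 to 8.65 attached. The adjusted p of IGF2R, EGFR and VLDLR was at most 0.000616.

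The other calls of that list were smaller and are named although the naming rule did not cover them. MRC2, a collagen uptake receptor that associates with the urokinase receptor, rose by 0.31 (adjusted p = 0.00421). FPR2, a chemotactic receptor, rose by 0.20 from a mean far below 5.28, a call lost in 7 of 8 refits that left out 1 array (log2 0.17 to 0.26), after median centring (adjusted p = 0.0686) and with replicate number as a block (adjusted p = 0.0832). The integrin subunits ITGB5 (-0.22), ITGA3 (-0.19) and ITGB1 (-0.18) fell. ITGB1 lost its call in 6 of 8 such refits (-0.22 to -0.15), after quantile normalization, with array weights (adjusted p = 0.0518) and with the replicate block (adjusted p = 0.0939). ITGA3 lost its call in 5 of 8 (-0.23 to -0.17) and after quantile normalization. When all probe sets were tested, FPR2, ITGB1 and ITGA3 also lost their calls (limma adjusted p = 0.0889, 0.0736 and 0.0611). ITGAV, whose product pairs with ITGB3 or ITGB5 to bind vitronectin, had 0.10 and ITGB3 -0.05, neither called.

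Among genes whose products plasmin or urokinase act on, directly or through other proteases, 2 of 18 rose and 3 fell, 27.8% in all, with a median of 0.03. TGFB1, whose latent product plasmin can release, rose by 0.39 on the log2 scale (adjusted p = 0.000619). MMP14, a membrane-bound collagenase, rose by 0.27. MMP9, a gelatinase, was at 5.81 ± 0.15 suspended and 6.39 ± 0.10 attached (log2, SD, n = 4 each), and fell by 0.58. BDNF, a neurotrophin whose precursor plasmin cleaves, fell by 0.37, with signals of 5.30 ± 0.08 suspended and 5.67 ± 0.06 attached (log2, SD, n = 4 each). MMP1, an interstitial collagenase, fell by 0.22, a call lost in 5 of 8 refits that left out 1 array (-0.27 to -0.18). It was also lost when all probe sets were tested (limma adjusted p = 0.0551). FN1, fibronectin, which plasmin cuts in the matrix, had 0.09 and was not called.

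SERPINE2 acts on thrombin as well, so genes of thrombin and the start of coagulation were read beside it: 3 of 15 rose and 1 fell, 26.7% in all, with a median of 0.06. TFPI2, a secreted Kunitz inhibitor found in matrix that inhibits plasmin, fell furthest of the 118 genes in these lists. Its log2 signal was 8.38, 8.44, 8.40 and 8.54 in suspended replicates 1 to 4, against 9.18, 9.24, 9.27 and 9.27 in attached replicates 1 to 4. The groups lay far apart, with a log2 difference of -0.80 (SE 0.050, limma adjusted p = 9.88e-07), or a 1.74-fold lower signal. Thus 2 secreted inhibitors with plasmin-system targets, SERPINE2 and TFPI2, changed in opposite directions.

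F2R, the thrombin receptor PAR1, rose 1.52-fold, with log2 signals of 7.74, 7.72, 7.88 and 7.78 in suspended replicates 1 to 4, against 7.08, 7.30, 7.26 and 7.09 in attached replicates 1 to 4 (adjusted p = 5.43e-05). The groups did not overlap. TFPI, the inhibitor of the tissue factor pathway, rose by 0.32 (adjusted p = 0.0150). PROS1, the anticoagulant protein S, rose by 0.28 with its brighter probe set, but by the mean of its probe sets the difference was 0.11 and not called (adjusted p = 0.124). F2 itself, prothrombin, and F3, tissue factor, had differences of 0.07 and 0.06 with mean signals below 5.28.

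**Figure D4:**
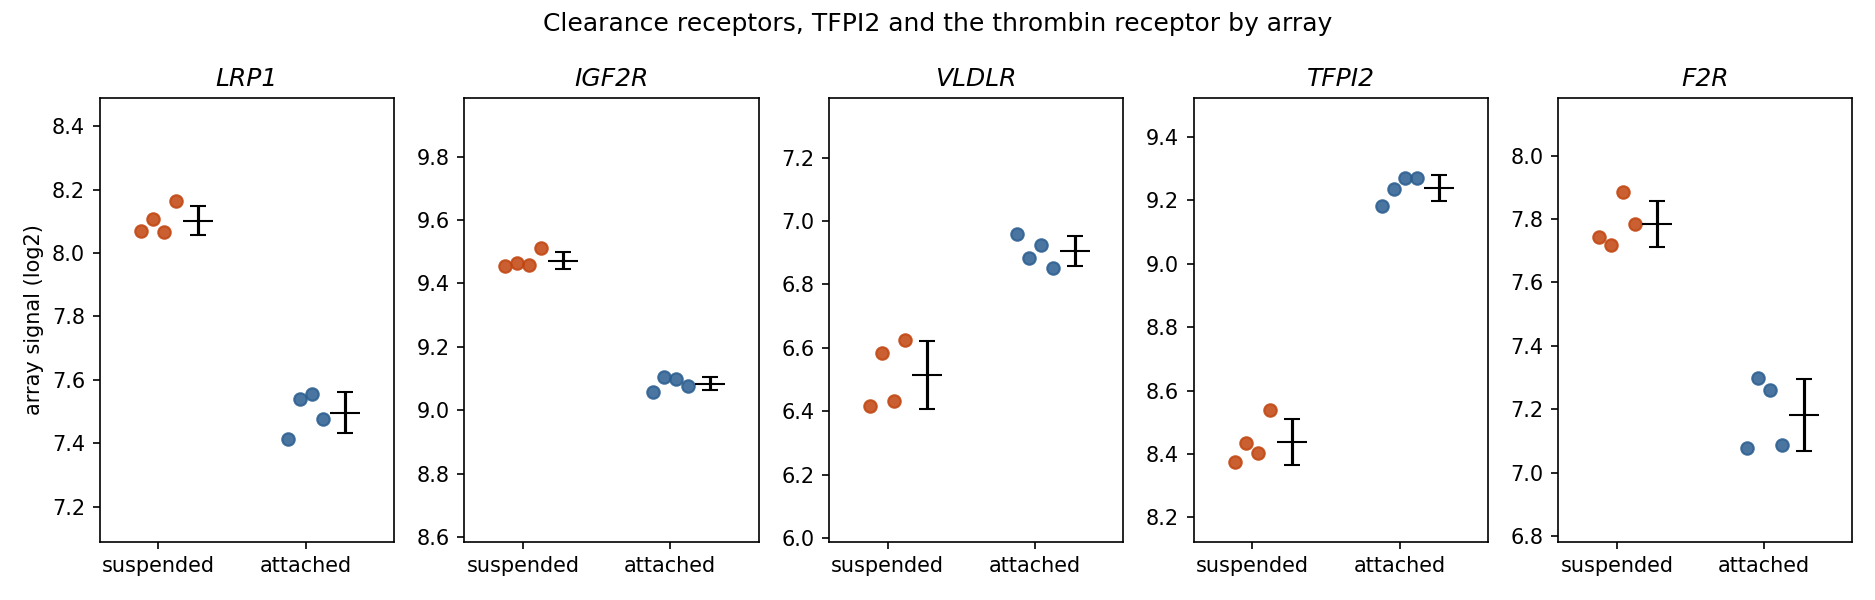
Log2 array signal (vertical axis, span of 1.4 in each panel) of LRP1, IGF2R, VLDLR, TFPI2 and F2R in the 4 suspended arrays (left) and 4 attached arrays (right), with mean and SD as black bars. LRP1, IGF2R and F2R are higher and VLDLR and TFPI2 lower in all 4 suspended arrays than in any attached array.

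Of the clade B serpins, the family of SERPINB2, 2 of 11 rose and 1 fell, 27.3% in all. Mean signals were below 5.28 in 9 of the 11, the called genes included. SERPINB7 was at 4.82 ± 0.14 suspended and 5.55 ± 0.08 attached (log2, SD, n = 4 each), and fell by 0.73 (adjusted p = 3.30e-05). SERPINB3 (0.50) and SERPINB4 (0.46), the squamous cell carcinoma antigens, rose. They are near-identical copies, so their probe sets may share signal. The SERPINB4 call was lost in 4 of 8 refits that left out 1 array (0.38 to 0.56) and when replicate number was a block (adjusted p = 0.0686). It was also lost when all probe sets were tested (limma adjusted p = 0.0655). SERPINB8, a serpin that inhibits furin, had -0.19 and was not called (adjusted p = 0.0615). It was called in 4 of 9 other settings and without suspended replicate 3 (-0.24, adjusted p = 0.0183).

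Other serine proteases with the trypsin-like fold of PLAT and PLAU gave 5 rises and 1 fall among 22, 27.3% in all, with a median of 0.10. HTRA1, a secreted protease of matrix proteins, rose 1.59-fold (log2 difference 0.67, adjusted p = 2.11e-05). Its values ran from 9.29 to 9.51 in suspended cells and from 8.67 to 8.87 in attached cells. C1S (0.53) and C1R (0.23), the paired proteases that start the classical complement pathway, rose, as did HTRA3 (0.25), a relative of HTRA1. CFD (0.22), the complement protease factor D, rose and PRSS23 (-0.31) fell; both are named outside the rule. The CFD call was lost in 3 of 8 refits that left out 1 array (0.17 to 0.25) and when all probe sets were tested (limma adjusted p = 0.0557).

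PLAUR belongs to proteins with three-finger folds, of which 0 of 15 tested were called by limma at adjusted p under 0.05, with 4 at an unadjusted p under 0.05. CD59, the membrane inhibitor of complement, had -0.15 (adjusted p = 0.0589), LY6E -0.18, LY6K -0.16 and LYPD5 0.19. CD59 was called in 4 of 9 other settings (adjusted p from 0.0157) and in 2 of 8 refits that left out 1 array, while quantile normalization gave -0.09 (adjusted p = 0.245). LYPD5 was called without suspended replicate 2 (0.28, adjusted p = 0.00876). LY6E was called without suspended replicate 4 (-0.22, adjusted p = 0.0389) and among genes above the median signal (adjusted p = 0.0401). LY6K was at -0.10 without attached replicate 1.

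**Figure D5:**
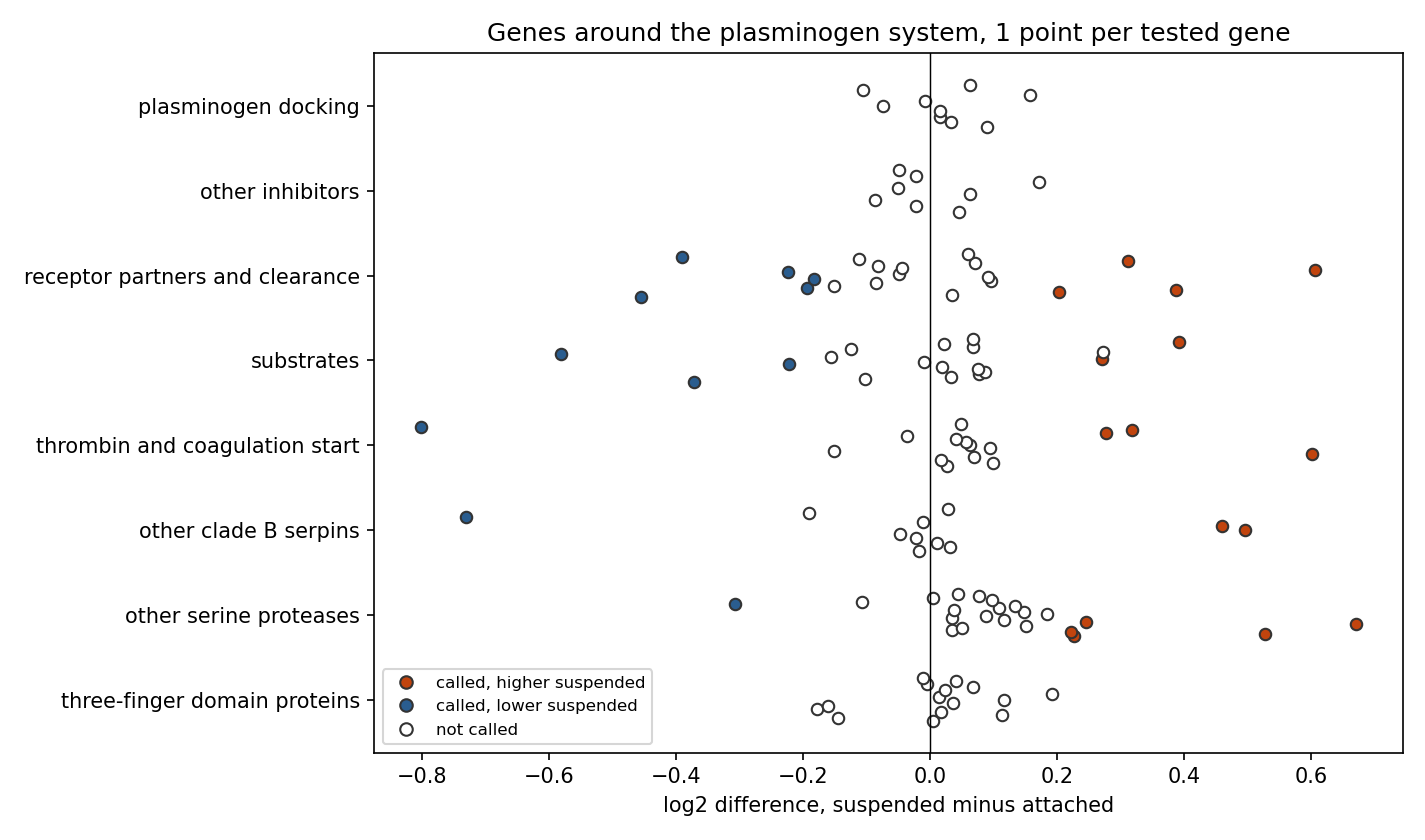
Log2 difference, suspended minus attached (horizontal axis), of the 118 tested genes in 8 lists around the plasminogen system, 1 point per gene; red points were called higher, blue points called lower and open points not called. The lists of plasminogen docking, other inhibitors and three-finger domain proteins hold 0 called genes, and the receptor list holds 4 higher and 5 lower.

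For each measured gene, the 3 tested genes whose log2 signal followed it most closely over the 8 arrays were picked by Pearson's r, as a description with no test. The 8 arrays fall into the 2 groups, so for PLAT and SERPINE2 much of r is the shared group difference, and r after removal of group means is given beside it. PLAT was followed by BCL2L11 (r = 0.995, and 0.880 without group means), which encodes the pro-apoptotic BIM. SOD2 (0.995 and 0.912), the mitochondrial superoxide dismutase, and SGK1 (0.994 and 0.853), a kinase, came next. SERPINE2 was followed by the kinase genes CDK17 (0.998 and 0.963) and CAMK2D (0.996 and 0.914) and by SBSPON (0.995 and 0.908), a secreted protein. All 6 rose, with log2 differences from 0.35 (SGK1) to 0.82 (BCL2L11).

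PLAU was followed by ITGA5 (r = 0.971, and 0.937 without group means), the fibronectin receptor subunit, EXOSC5 (0.970 and 0.948), of the RNA exosome, and SPC24 (0.964 and 0.935), of the kinetochore. Their log2 differences were -0.15, -0.09 and -0.20, and SPC24 alone of the 3 was called (adjusted p = 0.0216; lost in 4 of 8 refits that left out 1 array and with the replicate number as a block). ITGA5, with an adjusted p of 0.0541, was called in 5 of 9 other settings (adjusted p from 0.0189), and in none of 8 refits that left out 1 array. PLAUR was followed by MRPL54 (0.991 and 0.992), CPSF1 (0.981 and 0.980) and RABIF (0.953 and 0.953), with differences between -0.06 and -0.03 and none called. Each was picked as the highest of 18417 genes over 8 arrays.

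Array medians lay between 6.02 and 6.07, arrays correlated at r = 0.987 to 0.996 in all pairings, and 0 pairs were identical. The number of arrays limits the precision. Of the genes that the triple-negative label refers to, ESR1 (5.11 suspended, 5.04 attached) and PGR (4.31 and 4.19) were below 5.28. ERBB2 (7.53 and 7.48) was not, but an array signal does not give receptor status, so this does not go against the label. Of 3 mesenchymal markers CDH2, N-cadherin, fell (8.56 suspended, 8.94 attached), while VIM (11.66 and 11.73) and FN1 were not called. The summed log2 signal of these 3 ran from 30.9 to 31.2 in suspended and from 31.3 to 31.5 in attached arrays, without overlap. Of 3 leukocyte markers CD68 fell (8.03 suspended, 8.42 attached), while PTPRC (3.94 in both) and CD3E (4.73 and 4.64) were low and not called. The summed log2 signal of the 3 ran from 16.6 to 16.8 in suspended and from 16.9 to 17.2 in attached arrays, also without overlap. That separation was the fall of CD68 (log2 difference -0.39), since PTPRC had -0.0007 and CD3E 0.10. The labels name 1 cell line for all arrays, and CD68 by itself does not show leukocytes. The part of either list in the results was not tested. None of the 12 endothelial, platelet, hepatocyte or epithelial markers was called, which does not show absence. Some, such as KRT18 (8.13 suspended, 8.16 attached), had signals above 5.28. EPCAM had the widest range within a group of the 12, 1.02 (SD 0.27 suspended, 0.45 attached).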

How the data were processed

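Log2 signals of 8 arrays, 4 suspended and 4 attached, were taken from the table the authors deposited, with samples grouped by their titles. The log2 scale was inferred from the values. Partek is the program named, per the submitters' processing notes; its version and the normalization are not stated there. Per the labels' protocols, RNA was labelled with a FlashTag Biotin kit, which is usually used for small RNA; whether that step applies to these gene arrays is not settled by the labels. The platform's annotation named the genes: of 33297 probe sets, 19460 had 1 symbol, 1754 several and the rest none. The probe set with the highest mean stood for a gene, leaving 18417.

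Groups were compared with limma 3.58.1 (lmFit, eBayes, R 4.3.3), two-sided, without covariates. Benjamini-Hochberg adjustment ran over all 18417 genes, with a threshold of 0.05. Intervals are limma's 95%; those between members are from the within-array differences. The code was tested on simulated data. Figures used matplotlib 3.10.9.

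Members and lists were chosen with earlier results of these data known. Named by rule were all members, 4 genes per list with the smallest adjusted p, every called gene of a list with 5 or fewer, and the 3 genes most like each member. Besides, 7 genes were named after their values were seen, where 5 or fewer of a list moved one way, as were the uncalled F2, F3, FN1, ITGAV and ITGB3 of the lists. Alternatives were quantile normalization, median centring, filters on low signal, mean of probe sets, all probe sets, array weights, an intensity trend, a replicate block, leaving out each array and an exact permutation test.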

Additional observations from a re-analysis of the deposited data

Results flagged for a closer look

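In 7 of 112 groups of 4 arrays checked, those of 56 genes, 1 array stood apart from the other 3 by Dixon's criterion, and chance gives about 1 in 20. The 56 were the measured members, the genes named by rule and the 7 added called genes; the markers and the uncalled F2, F3, FN1, ITGAV and ITGB3 were not checked. None of the 7 was in PLAT, PLAU, PLAUR or SERPINE2. SERPINB3 was at 5.63 in suspended replicate 3, against 5.28 to 5.31 in the other suspended arrays, and ITGA5 at 8.05 in the same array, against 8.18 to 8.20. FPR2 was at 4.05 in suspended replicate 1, with 3.91 to 3.92 in the others, and IGF2R at 9.51 in suspended replicate 4, with 9.45 to 9.46 in the others. MMP14 was at 7.53 in attached replicate 1, with 7.69 to 7.72 in the others. In attached replicate 2, ENO1 was at 12.76, with 12.68 to 12.69 in the others, and CAMK2D at 9.49, with 9.54 to 9.55 in the others.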

How the results depend on the processing

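PLAT (log2 0.55 to 0.63) and SERPINE2 (0.38 to 0.45) kept their direction and their call under all 17 refits, 8 of which left out 1 array. PLAU was not called in any of the 17 (-0.15 to -0.09, adjusted p from 0.0503); the exact permutation test, which does not adjust over genes, gave p = 0.0286 for the same difference of -0.123. PLAUR was not called in any, and its sign turned with quantile normalization (0.0175); the cause was not tested. The count of called genes, 3787, ran from 2934 to 4191 and the 27 calls in the lists from 21 to 30. With the replicate number as a block 3022 genes were called; samples of the same number did not deviate together (r -0.22 to -0.01), and no sample matched its own number best, so the numbers are not taken as pairs. Of 860 values of 52 further genes under these alternatives, 791 kept direction and call; MRPL54 changed sign without attached replicate 3 (-0.135 to 0.0220 over the 8 refits). The median of all genes moved by under 0.1 (log2) with each scaling. Arrays without a background measure limit what signals near or below 5.28 can show.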
